A study of Mus musculus with 5 samples.

Results

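The genes described here are the integrin and laminin genes of the mouse, followed in forelimb buds with and without HOX13 function. They were all gene symbols in the count tables that name an integrin alpha chain, an integrin beta chain or a laminin chain, kept where at least 2 of the 5 libraries had 10 counts or more. The names matched 37 of 23284 symbols and 35 were kept, of which 16 were integrin alpha genes, 8 integrin beta genes and 11 laminin genes. The 2 symbols left out were leukocyte integrin genes: Itgad had 1 read in 1 wild-type library, and Itgax had 2 and 4 reads in the mutant libraries and 0 elsewhere.

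Integrins are receptors that span the cell membrane as a pair of 1 alpha and 1 beta chain. Outside the cell they bind collagens, laminins, fibronectin and other matrix proteins, and inside it they are tied to the actin or keratin skeleton. Laminins are secreted trimers of an alpha, a beta and a gamma chain, and they form the sheet of basement membranes under epithelia and around vessels, muscle and nerve. In the limb bud a basement membrane separates the surface ectoderm, with its apical ridge, from the mesenchyme that makes the skeleton.

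Total RNA was sequenced in 5 libraries. At E11.5 (embryonic day) the distal part of the forelimb was dissected, with 2 libraries from wild-type embryos and 2 from Hoxa13-/-;Hoxd13-/- embryos (mutant), all of a mixed C57BL/6 and CD1 background. The Hoxa13 allele carries a neomycin cassette in the coding region and the Hoxd13 allele a lacZ reporter in exon 1, and each E11.5 library came from an independent pool of dissected tissue. The E10.5 group was 1 library of CD1 forelimb bud, and it differs from the E11.5 groups in stage, in the part dissected and in the strain label. Reads in genes numbered 45115494 to 84172202 per library. Hoxd13 fell in the mutant, with 11142 and 13745 reads in wild type and 2852 and 1932 in the mutant (log2 fold change -2.50, adjusted p = 1.12e-07 by edgeR), while Hoxa13 (2292 and 2638 against 2872 and 1924 reads, log2 fold change -0.17, adjusted p = 0.438) did not pass the test. Reads outside an inserted cassette can still be counted to its gene, so the Hoxa13 level does not check that allele. Of 8 genes of limb mesenchyme (among them Tbx5 and Pdgfra) 0 were at 0 reads in any library, and in the mutant 2 of them rose (Prrx1 and Col1a1) and 4 fell (Msx1, Twist1, Lhx9 and Prrx2). Between the genotypes 7.16% of 16166 tested genes were called, which means an adjusted p below 0.05 by the quasi-likelihood test of edgeR, over all genes tested. The wild-type libraries differed more from each other than the mutant ones, with a median absolute log2 difference of 0.144 against 0.102.

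Levels are given as scaled CPM, that is reads of a gene over the library total after TMM scaling of the 5 libraries, and fold changes are mutant over wild type. Levels of different genes were compared only per kilobase of exon. The exon lengths are those of GENCODE M21 on GRCm38, not those of the counting, so the order of genes is approximate. By this measure Itgb1, the beta chain that pairs with most integrin alpha chains, was the highest member, with 104 and 114 CPM per kb in the wild-type libraries, 116 and 120 in the mutant and 119 at E10.5. Lamb1, the main laminin beta chain of early basement membranes, came next with 48.7 and 43.4 in wild type, above Itgb5, a beta chain that pairs with Itgav, with 34.3 and 36.6. Itgav, the alpha chain of receptors that recognise the sequence RGD in fibronectin and vitronectin, had 22.1 and 20.3, and Itga6, an alpha chain of laminin receptors, had 16.1 and 16.6. The laminin chains Lamc1 (15.5 and 13.2) and Lama4 (13.3 and 13.7) followed with overlapping values. At the lower end stood Itgal (0.0736 and 0.0360) and Lamc3 (0.0291 and 0.0722), whose values also overlapped.

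**Figure D1:**
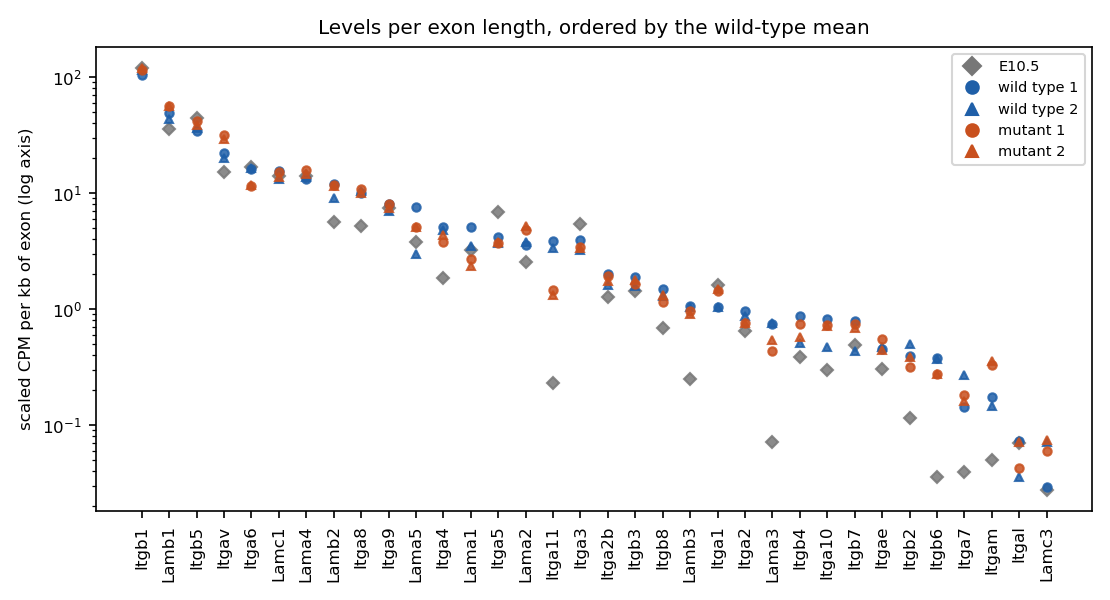
Level of 34 members in scaled CPM per kb of exon (log axis), ordered by the wild-type mean, with 1 point per library. Itgb1 is the highest member in all 5 libraries, and Itga11, Lama3, Itgb6 and Lamb3 show a gap between the E10.5 point and the E11.5 points.

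In the mutant 4 members rose and 5 fell, which is 25.7% of the 35 members beside 7.16% of all tested genes (3.82% risen and 3.34% fallen). Risen were Itgav, Itga1, Itgam and Lama2, and among the fallen were Itga11, Itga6, Lama1 and Lama3. The median log2 fold change of the members was 0.02, beside -0.0008 over all genes tested. In 18 members (51.4%) the 2 mutant libraries did not overlap the 2 wild-type libraries, beside 49.4% of all tested genes, so non-overlap alone says little here. The median level of the members was 13.7 CPM and that of all tested genes 17.6 CPM. Of the 9 calls, 6 were lost in at least 1 of the alternative settings. Itga11, Itgav and Lama1 were the 3 members called in every setting run. Leaving out mutant replicate 1 or 2 gave 4 or 5 called members, and leaving out wild-type replicate 1 or 2 gave 11 or 9.

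**Figure D2:**
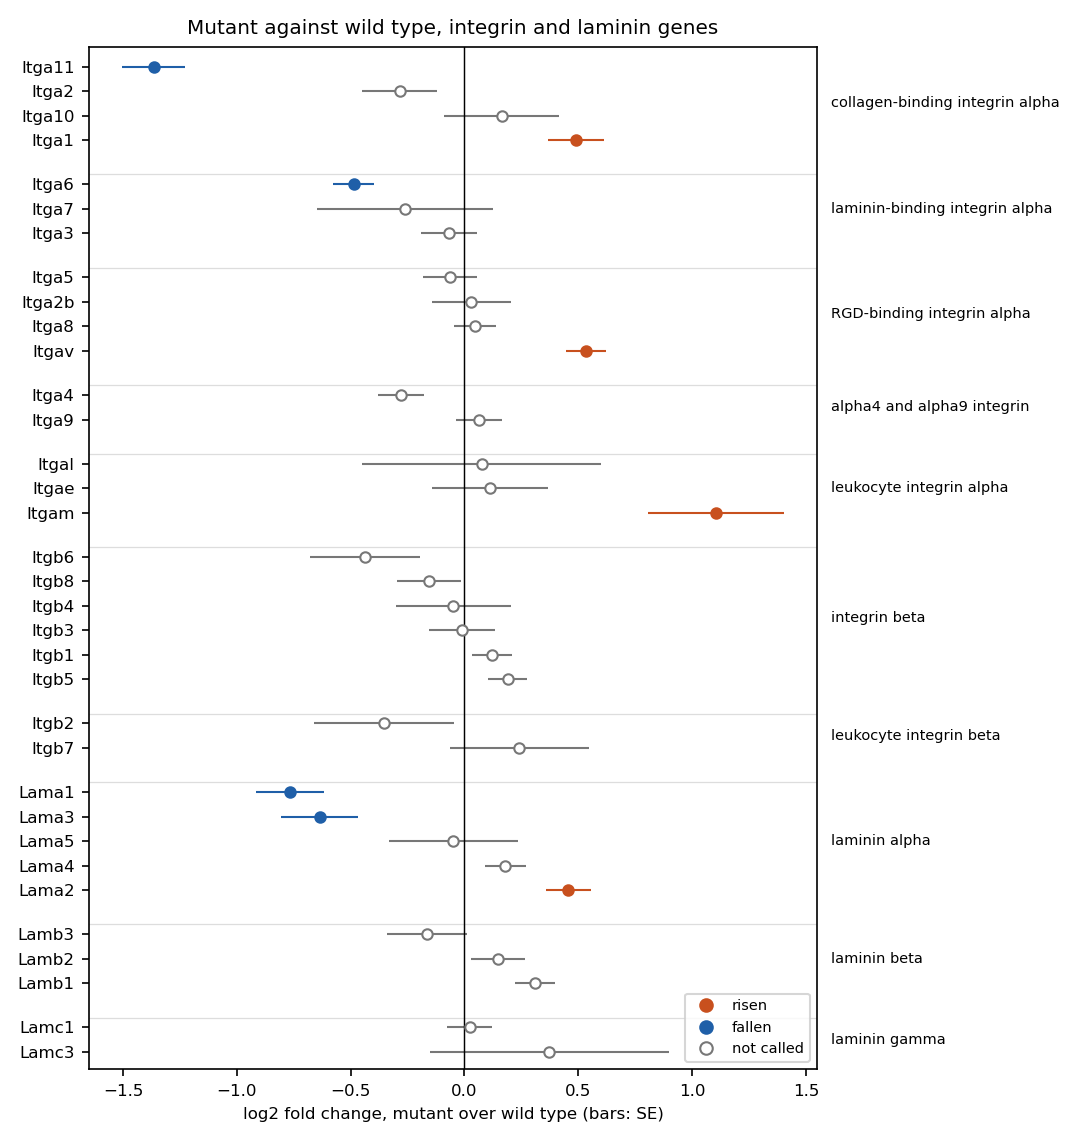
Log2 fold change of mutant over wild type for 34 members, grouped by role, with bars of 1 SE and filled points for called genes. Itga11 stands lowest at -1.37, and called genes of both directions occur among the collagen-binding alpha chains and among the laminin alpha chains.

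Among the collagen receptors, Itga11 fell and Itga1 rose. Itga11 encodes the alpha chain of a receptor for fibrillar collagen that mesenchymal cells and fibroblasts carry. It measured 19.3 and 16.6 CPM in the wild-type libraries and 7.28 and 6.56 in the mutant libraries, with 1.14 at E10.5. Both mutant libraries lay below both wild-type libraries and above the E10.5 library. The fall was from 18.0 ± 1.92 to 6.92 ± 0.511 CPM (SD, n = 2 each), which edgeR put at -1.37 on the log2 scale (SE 0.14, adjusted p = 9.05e-05), and leaving out 1 library at a time gave -1.26 to -1.46. Itga1, the alpha chain of a receptor that also binds collagen IV of basement membranes, measured 11.48 and 11.41 CPM in wild type, 15.6 and 16.4 in the mutant and 17.9 at E10.5. The groups did not overlap, and the log2 fold change was 0.49 (SE 0.12, adjusted p = 0.0310). The Itga1 call ended without mutant replicate 1 (log2 fold change 0.53, SE 0.19) and without mutant replicate 2 (0.46, SE 0.19). With 1 mutant library left, the fit takes its spread from the wild-type libraries alone. Itga2 (log2 fold change -0.28, adjusted p = 0.387) and Itga10, a collagen receptor chain known from cartilage (0.16, adjusted p = 0.802), did not pass the test. The Itga10 values in wild type, 4.14 and 2.40 CPM, lay on either side of the mutant values of 3.66 and 3.59.

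Upstream sequence is shown for Itga11 and Itga1, the pair of collagen receptor genes called in opposite directions, and for Itgav, the risen integrin gene with the highest level. The RefSeq promoter table (GRCm38.p6) held 25 start sites of 22 members. It had none for the fallen genes Itga6, Lama1 and Lama3, so the searches below do not cover them. Each line runs 5′ to 3′ on the strand of the gene, from 250 to 31 bases before the start site, with CG dinucleotides in capitals. Itga11 (chr9:62677605-62677824, plus strand), Itga1 (chr13:115101995-115102214, minus strand) and Itgav (chr2:83724147-83724366, plus strand) had 11, 9 and 15 CG dinucleotides in these 220 bases.
Itga11: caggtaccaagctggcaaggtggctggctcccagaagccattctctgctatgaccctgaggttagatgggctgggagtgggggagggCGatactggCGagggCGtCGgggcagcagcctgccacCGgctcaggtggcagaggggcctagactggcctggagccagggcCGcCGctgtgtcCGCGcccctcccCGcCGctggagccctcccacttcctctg
Itga1: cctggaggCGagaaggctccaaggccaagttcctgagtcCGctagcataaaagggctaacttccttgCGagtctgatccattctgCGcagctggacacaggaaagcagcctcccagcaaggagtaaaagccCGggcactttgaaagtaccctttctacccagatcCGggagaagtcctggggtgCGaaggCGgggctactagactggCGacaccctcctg
Itgav: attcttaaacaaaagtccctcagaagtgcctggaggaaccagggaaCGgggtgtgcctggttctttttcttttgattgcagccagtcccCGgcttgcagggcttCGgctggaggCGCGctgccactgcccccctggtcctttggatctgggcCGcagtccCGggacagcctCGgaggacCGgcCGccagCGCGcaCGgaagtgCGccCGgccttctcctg
Over the full 250 bases before the start the counts were 12, 10 and 18, where the median of all 32851 promoters was 6, and 33.5%, 37.8% and 21.7% of all promoters had at least as many. The letters CAATAAA and TCGTAAA, parts of sequences that HOX13 proteins are known to bind in vitro, were searched on both strands of the same 250 bases. They occurred in 0 of the 25 member promoters, beside 4.2% and 0.478% of all promoters. TATAAA, the core of the TATA box, occurred in 0 of 25 beside 12.4%, and GGGCGG, the GC box, in 9 of 25 (36%) beside 32.7%, but not in the 3 promoters shown. A missing match says only that these letters are not in this window.

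Among the laminin receptors, Itga6 fell. Itga6 pairs with Itgb1 or, in the hemidesmosomes of epithelia, with Itgb4. It measured 70.3 and 72.4 CPM in wild type, 50.0 and 51.3 in the mutant and 73.1 at E10.5. Both mutant libraries lay below the 3 others. The log2 fold change was -0.49 (SE 0.09, edgeR adjusted p = 0.00600). Without mutant replicate 1 it was -0.47 (SE 0.15), and the call ended. Itgb4, the hemidesmosome partner, had 5.61 and 3.25 CPM in wild type and 4.77 and 3.68 in the mutant, with overlapping groups (log2 fold change -0.05, SE 0.25, adjusted p = 0.951). Itga3, the other epithelial laminin receptor chain, had -0.07 (adjusted p = 0.837), and Itga7, the laminin receptor chain of muscle, had -0.26 (adjusted p = 0.791) with 28 to 63 reads per E11.5 library. Of 12 muscle lineage markers, 1 fell (Actc1) and 0 rose, with a summed level of 355 and 529 CPM in the mutant and 613 and 547 in wild type. Ttn alone made up 221 and 356 CPM of the mutant sums and 427 and 329 of the wild-type sums. The part of muscle lineage cells in the Itga7 values was not tested.

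Among the receptors for RGD ligands, Itgav rose and the other 3 did not pass the test. The Itgav level was 156 and 143 CPM in wild type, 225 and 206 in the mutant and 108 at E10.5. The mutant libraries were the 2 highest of the 5. The rise was 1.45-fold (log2 0.53, SE 0.09, edgeR adjusted p = 0.00279) and lay between 0.47 and 0.60 when 1 library was left out. Itga5, the classic fibronectin receptor chain, had a log2 fold change of -0.06 (adjusted p = 0.846), and Itga8, a receptor chain for nephronectin, had 0.05 (adjusted p = 0.857). Itga8 shares 372 exon bases (6.4%) with the opposite-strand gene E030013I19Rik, and Itga4 shares 127 bases (1.3%) with Cerkl and Itga7 shares 9 bases (0.22%) with Mettl7b. Their values are uncertain to that extent, because no source used here states how HTSeq was set for strand. Itga2b, the alpha chain of the platelet fibrinogen receptor, had 0.03 (adjusted p = 0.956). Of 9 megakaryocyte and platelet markers, 2 fell (Ppbp and Gp6) and 0 rose, with summed levels of 19.1 and 21.6 CPM in the mutant and 25.6 and 22.6 in wild type. In bulk tissue fewer cells of a type and less RNA per cell cannot be told apart.

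Of the 6 beta chain genes outside leukocytes, 0 were called by edgeR, 1 had an unadjusted p below 0.05 (Itgb5), and DESeq2 called 0. Itgb1 measured 397 and 436 CPM in wild type, 444 and 457 in the mutant and 454 at E10.5, with a log2 difference of 0.12 (SE 0.09, adjusted p = 0.528). Itgb5 measured 116 and 124 in wild type, 141 and 132 in the mutant and 149 at E10.5 (0.19, SE 0.09, adjusted p = 0.257). For both genes the mutant libraries lay above the wild-type libraries, but neither gene was called. The genotypes also did not overlap in 49.4% of all tested genes. Itgb3 (-0.01), Itgb8 (-0.16), which pair with Itgav, and Itgb6 (-0.44), an epithelial partner of Itgav, had adjusted p of 0.982, 0.620 and 0.361. Itga4, a receptor chain for Vcam1 and fibronectin, measured 50.1 and 47.4 CPM in wild type and 37.0 and 42.9 in the mutant (-0.28, SE 0.10, adjusted p = 0.143). Itga9, a receptor chain for tenascin, had 0.06 (adjusted p = 0.806).

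Of the 5 leukocyte integrin genes kept, Itgam rose and the others did not pass the test. Itgam, the alpha chain of the complement receptor of macrophages and other myeloid cells, had 40 and 41 reads in wild type, 100 and 89 in the mutant and 18 at E10.5. That is 0.854 and 0.724 CPM in wild type and 1.61 and 1.76 in the mutant, without overlap. The log2 fold change was 1.10 (SE 0.30, adjusted p = 0.0458), and the call ended under DESeq2 (adjusted p = 0.0960), without either mutant replicate (0.121 and 0.211) and without wild-type replicate 2 (0.104). Itgb2, the partner chain of Itgam, had a log2 fold change of -0.35 (adjusted p = 0.609), with 1.17 and 1.48 CPM in wild type and 0.934 and 1.15 in the mutant. Of 13 macrophage markers, 2 rose (Mrc1 and Lyz2) and 0 fell. Their summed level was 89.8 and 86.4 CPM in the mutant and 58.8 and 76.1 in wild type. Mrc1 alone made up 32.7 and 34.6 CPM of the mutant sums and 17.8 and 26.0 of the wild-type sums, so the sums lean on 1 gene. The lowest count among these markers was 29 reads. The part of macrophages in the Itgam rise was not tested. Itgal (0.08), Itgae (0.11) and Itgb7 (0.24), chains of lymphocyte integrins, had adjusted p of 0.749 to 0.965.

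**Figure D3:**
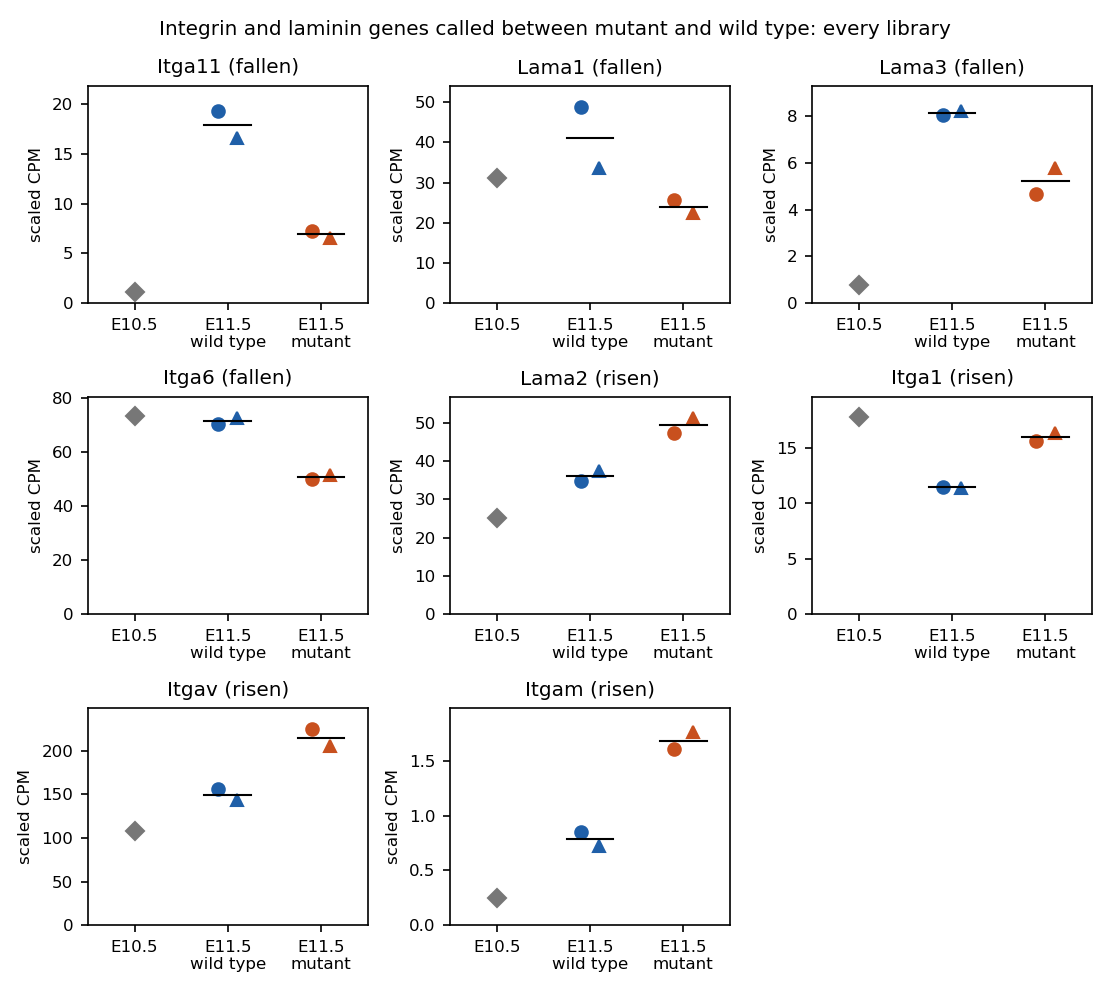
Scaled CPM of 8 called members in every library, with replicate 1 as circles, replicate 2 as triangles, the E10.5 library as a diamond and a bar at each group mean. The 2 mutant points lie outside the 2 wild-type points in each panel, and for Lama1 the wild-type points, 48.7 and 33.5, are the farthest apart.

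Among the laminin alpha chains Lama1 and Lama3 fell and Lama2 rose. Lama1, the alpha chain of the earliest embryonic laminin, measured 48.7 and 33.5 CPM in wild type, 25.6 and 22.3 in the mutant and 31.0 at E10.5. The mutant libraries were the 2 lowest of the 5. The fall was from 41.1 ± 10.7 to 24.0 ± 2.31 CPM (SD, n = 2 each, log2 fold change -0.77, SE 0.15, adjusted p = 0.00874). Its size depended on the wild-type libraries, at -0.4863 when wild-type replicate 1 was dropped and -1.0023 when the other one was. Lama2, the alpha chain of muscle and nerve basement membranes, measured 34.9 and 37.4 CPM in wild type, 47.5 and 51.3 in the mutant and 25.1 at E10.5 (log2 fold change 0.46, SE 0.10, adjusted p = 0.0145). The groups did not overlap, and the Lama2 call ended without mutant replicate 2 (log2 fold change 0.40, SE 0.15). Of 11 neuron and Schwann cell markers, 1 rose (Gap43) and 2 fell (Tubb3 and Stmn2), with summed levels of 62.4 and 65.2 CPM in the mutant and 75.8 and 76.7 in wild type, and their part in the Lama2 rise was not tested. Lama4, an alpha chain of vessels and mesenchyme, had 0.18 (adjusted p = 0.306). Of 13 endothelial markers, 1 rose (Flt1) and 1 fell (Erg), with summed levels of 316 and 286 CPM in the mutant and 277 and 286 in wild type.

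Of Lama3 and Lamb3, chains of a laminin that anchors epithelia, Lama3 passed the test and Lamb3 did not. Each was lower in both mutant libraries than in both wild-type libraries, but 49.4% of all tested genes also had groups without overlap. Lama3 measured 8.05 and 8.23 CPM in wild type and 4.66 and 5.78 in the mutant (edgeR log2 estimate -0.64, SE 0.17, adjusted p = 0.0437). The Lama3 call was near the threshold and ended without mutant replicate 1 (log2 -0.48, SE 0.25). Lamb3 measured 5.49 and 5.32 in wild type and 4.95 and 4.64 in the mutant, with -0.16 (SE 0.17, adjusted p = 0.689). Of 14 surface ectoderm markers, 2 fell (Krt8 and Krt14) and 0 rose. The summed level of these markers was 387 and 408 CPM in the mutant and 410 and 425 in wild type. Of 8 apical ridge markers, 3 rose (Fgf4, Fgf8 and Fgf17) and 2 fell (Sp6 and Dlx2), with summed levels of 68.2 and 69.2 CPM in the mutant and 55.5 and 48.0 in wild type. The part of ectoderm or ridge in these laminin values, and in those of Itga6, was not tested.

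Lama5, the alpha chain that takes over from Lama1 in later basement membranes, could not be given a direction. It measured 87.2 and 34.4 CPM in wild type and 58.7 and 57.7 in the mutant, so the mutant libraries lay close together, between the wild-type libraries. The ratio of the wild-type replicates was 2.54, a gap in this direction that 0.829% of the tested genes reached. With both wild-type libraries the log2 fold change was -0.05 (SE 0.28, adjusted p = 0.956). Against wild-type replicate 2 alone it was 0.76, and against replicate 1 alone -0.56. With 1 wild-type library left, the fit takes its spread from the mutant libraries alone, so no p-value is given for these values. Of the 13 basement membrane partners, 11 were higher in wild-type replicate 1 and 2 were lower (Sparc and Fbln2). The smallest gap of the 11, that of Nid1, was reached in this direction by 44.3% of the tested genes. Of the 11, 4 were over 1.5 times as high in wild-type replicate 1. These 4, named after their values were seen, were the heparan sulfate proteoglycans Hspg2 (96.5 and 40.0 CPM) and Agrn (176 and 96.2), the ectodermal matrix protein gene Fras1 (134 and 76.3) and the collagen IV chain Col4a1 (380 and 229). Over 1.5 times more in wild-type replicate 1 than in replicate 2 was measured for 5 of 35 members and 7.94% of the tested genes, and the reverse for 2 members and 2.67%. The 5 were Lama5 and, at much lower levels, Itga10, Itgb4, Itgb7 and Itgal (22 and 13 reads). In reverse were Itga7 (28 and 63 reads) and Lamc3 (8 and 24 reads). In the mutant 1 of 35 members and 6.64% of the tested genes were over 1.5-fold apart in either direction.

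**Figure D4:**
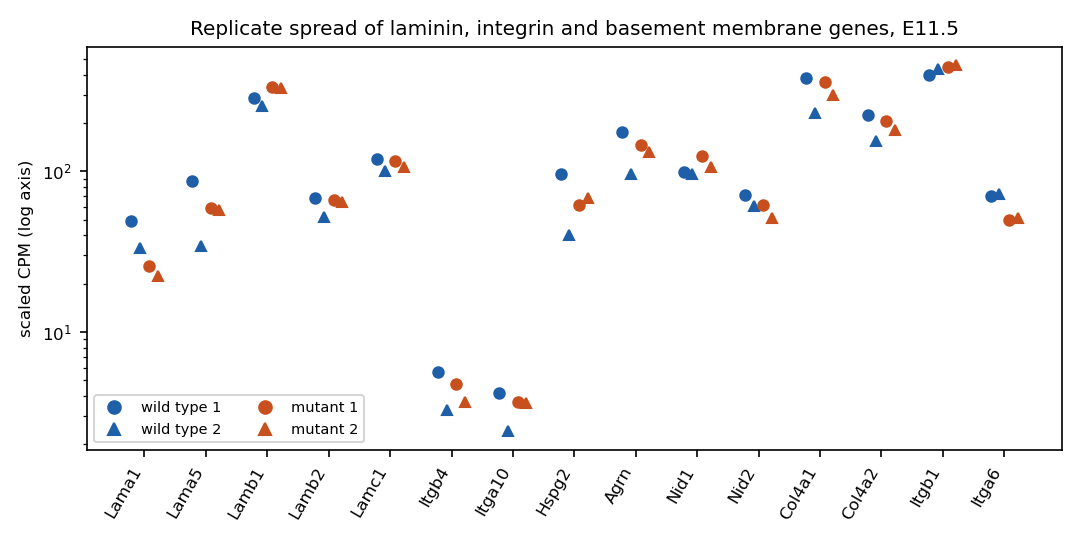
Scaled CPM (log axis) of selected laminin, integrin and basement membrane genes in the 4 E11.5 libraries. Among those not drawn are Sparc and Fbln2, which were lower in wild-type replicate 1, and Lama2, Lama3, Lama4 and Lamb3. Lama5 and Hspg2 have the widest gap between wild-type replicate 1 (circle) and replicate 2 (triangle), with the mutant points between them, while the points of Itgb1 and Itga6 lie close within each genotype.

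Of the beta and gamma chains most laminins share, none was called. Lamb1 measured 285 and 254 CPM in wild type, 333 and 331 in the mutant and 207 at E10.5, with a log2 difference of 0.31 (SE 0.09, adjusted p = 0.0550). It passed with the DESeq2 test (adjusted p = 0.0278) and in edgeR with no filter on low counts (0.0164), but not in edgeR with DESeq2's size factors (0.0572). Leaving out 1 library at a time gave log2 differences of 0.24 to 0.38. Lamb2, a beta chain of later basement membranes, measured 67.9 and 51.6 CPM in wild type, 66.7 and 64.7 in the mutant and 31.5 at E10.5. Its log2 fold change was 0.15 (adjusted p = 0.575), with 0.35 against wild-type replicate 2 alone and -0.03 against replicate 1 alone. Lamc1, the gamma chain of nearly every trimer, had 0.02 (SE 0.10, adjusted p = 0.943), at 118 and 101 CPM in wild type and 116 and 106 in the mutant. Lamc3, with 8 to 24 reads per library, had 0.37 (SE 0.52, adjusted p = 0.779).

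A list of 50 matrix and adhesion partners was read beside the members. Of 49 tested, 4 rose and 1 fell, which is 10.2% beside the 7.16% of all tested genes. With DESeq2's size factors 4 partners were called in place of 5. Fbln2, a basement membrane glycoprotein, rose from 90.2 and 92.0 CPM to 148 and 122 (log2 fold change 0.57, SE 0.10, adjusted p = 0.00415). Vcam1, a ligand of the receptor with the Itga4 chain, rose from 116 and 132 to 164 and 162 (0.40, SE 0.09, adjusted p = 0.0216). Egfl6, a ligand of the receptor with the Itga8 chain, rose from 5.42 and 5.92 to 7.93 and 9.01 (0.58, SE 0.16, edgeR adjusted p = 0.0499). The Egfl6 call lay at the threshold. Inside the cell Fermt2, a kindlin that binds integrin beta tails, fell from 135 and 145 to 104.6 and 97.9 (-0.47, SE 0.09, adjusted p = 0.00678), and Parvb, an actin-linked partner of the kinase Ilk, rose from 2.37 and 1.31 to 4.99 and 4.32 (1.36, SE 0.27, adjusted p = 0.00882). Talin (Tln1, -0.08), Ilk (-0.04) and focal adhesion kinase (Ptk2, -0.02), named after their values were seen, had adjusted p of 0.748 to 0.935. The number of called partners became 16 on leaving out wild-type replicate 1, 10 on leaving out wild-type replicate 2 and 3 on leaving out either mutant replicate.

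Against the wild-type E11.5 libraries, 0 members were higher at E10.5 and 8 were lower. Here a gene counted as higher or lower when its E10.5 level was 2-fold or more away from both wild-type libraries, on one side, with no test because E10.5 had 1 library. The 8 are 22.9% of the members, beside 16.2% of 16323 genes past the same fold, of which 3.65% were higher and 12.6% lower. The wild-type libraries are shared with the mutant comparison, so the values of both are only set side by side. Itga11 showed the largest difference of the members, with 84 reads at E10.5 or 1.14 CPM (exact 95% Poisson interval 0.910 to 1.41, counting error only) and a wild-type mean 15.7 times as high. The epithelial genes Lama3, Itgb6 and Lamb3 were at 0.774 (0.586 to 1.003), 0.217 (0.124 to 0.353) and 1.29 CPM (1.04 to 1.58), and their wild-type means were 10.52, 10.47 and 4.19 times as high. The muscle laminin receptor chain Itga7 had 12 reads, and its wild-type mean was 5.25 times as high.

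The last 3 of the 8 were Itga4, Itgb2 and Itgam. Itga4 stood at 18.0 CPM, with a wild-type mean 2.71 times as high, and the leukocyte genes Itgb2 (25 reads) and Itgam (18 reads) were 3.91 and 3.23 times as high in wild type. Of 13 macrophage markers 11 were lower at E10.5 and 0 higher, with a summed level of 21.6 CPM against 58.8 and 76.1. Of 12 muscle markers 6 were lower and 2 higher (Pax3 and Lbx1), with 127 CPM against 613 and 547. Ttn alone made up 6.03 CPM of the E10.5 sum and 427 and 329 of the wild-type sums. Of 14 surface ectoderm markers 2 were lower and 0 higher, with 371 CPM against 410 and 425, a share (14.3%) near that of all genes. The part of these cell types in the member values was not tested. Members short of the limit included Itga8, with log2 differences of -0.94 and -0.99, and Itgb8, with -1.12 and -0.92. Itga4, which was past the limit, had -1.48 and -1.40. Itga5 was the member with the largest excess at E10.5 over both libraries (30.2 CPM against 18.5 and 16.1, log2 differences 0.70 and 0.90). Against wild-type replicate 1 alone 14 members were lower, and against replicate 2 alone 9.

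**Figure D5:**
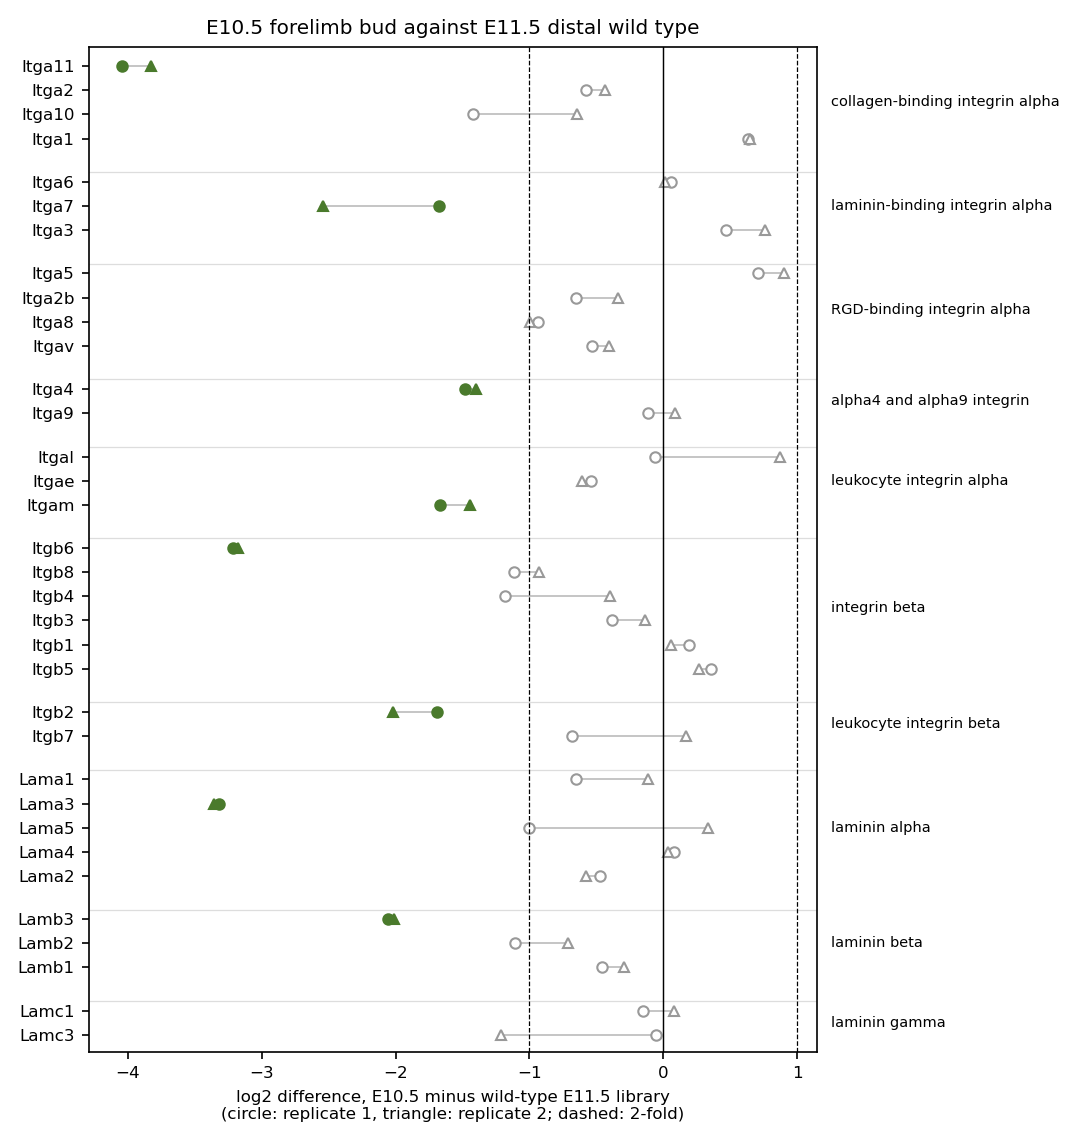
Log2 difference of the E10.5 library from each wild-type E11.5 library for 34 members, with dashed lines at 2-fold and filled points for the 8 members past it in both. Itga11, Lama3 and Itgb6 lie farthest to the left, and 0 of the members drawn lie past the right line.

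Itgb1, Lama4, Lamc1, Itga6 and Itga9 had nearly the same level in the E10.5 library and in both wild-type E11.5 libraries. Stage, dissected part and strain label differ together in this comparison. The log2 differences from either wild-type library lay between -0.15 and 0.20, and these genes were picked after their values were seen. Itga6 was the one of these that was called in the mutant.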

How the data were processed

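RNA of 5 mouse forelimb libraries was analysed from integer read counts for each gene symbol. The labels' protocols describe depletion of ribosomal RNA and stranded libraries read from both ends. The deposited counts were made by the authors with HTSeq, and TopHat2 2.0.13, Cufflinks 2.1.1, SAMtools and mm9 are named in the submitters' processing notes. How the counting was set for strand, annotation and filters is not given in these sources. The 5 HTSeq total lines of each table were left out, among them reads in no feature (24.3% to 39.6% of the sum of all lines).

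Low genes were removed by filterByExpr (count 10, total 15). The 4 E11.5 libraries, TMM-scaled, entered edgeR 4.0.16 (quasi-likelihood, older estimate, R 4.3.3), with Benjamini-Hochberg adjustment over all genes and a threshold of 0.05. The procedure was tested on simulated data. E10.5 was compared on log2 CPM with a prior count of 2. Alternatives were DESeq2 1.42.0, its size factors, no filter, the newer estimate, a replicate block, a prior count of 0.5 and leaving out each library. The edgeR p-values set the difference against the spread between 2 pools a genotype, with the variance of each gene drawn toward a trend over all genes. All members are accounted for, and called partner and marker genes are named, at most 4 per direction by adjusted p. Members and lists were chosen with earlier results of these data known. Values of 1 member are not reported here, and it stays in the counts.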

Additional observations from a re-analysis of the deposited data

How the results depend on the processing

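Of the 9 called members, 9 were also called with DESeq2's size factors, with the newer estimate and with no filter on low counts (10 members called there), and 8 with the DESeq2 test, which added Lamb1. Without the filter 1762 genes in all were called, 959 of them risen. Same-numbered libraries did not deviate together (r = -0.0775 over 16166 genes). With 2 libraries per genotype this cannot settle whether the numbers pair the samples. The replicate block gave 1252 called genes and 9 members (8 shared, with Itgam lost at an adjusted p of 0.0732 and Lamb1 gained at 0.0387), and Lama5 had 0.0865 under it in place of -0.05. Leaving out 1 library gave 796 to 2018 called genes (risen 410 to 1113, fallen 373 to 905), 4 to 11 members (risen 1 to 7, fallen 2 to 6), 3 to 16 partner genes and 9 to 14 members past 2-fold at E10.5, all of them lower. Among members that changed sign when 1 library was left out, Lama5 ranged from -0.56 to 0.76. Its calls on both sides took their spread from the mutant libraries alone. The ranges of the uncalled others were -0.17 to 0.59 for Itga10, -0.11 to 0.18 for Itga2b, -0.20 to 0.0716 for Itga3, -0.15 to 0.0272 for Itga5, -0.64 to 0.28 for Itga7, -0.0204 to 0.11 for Itga8, -0.0231 to 0.16 for Itga9, -0.0511 to 0.26 for Itgae, -0.36 to 0.64 for Itgal, -0.12 to 0.11 for Itgb3, -0.39 to 0.38 for Itgb4, -0.13 to 0.72 for Itgb7, -0.0282 to 0.35 for Lamb2, which was called in 1 setting, -0.0781 to 0.13 for Lamc1 and -0.11 to 1.21 for Lamc3. The cause of these changes was not tested. Low counts limit Itga7, Itgal, Itgam, Itgb2 and Lamc3, and a lone library left in a group is assumed to vary like the other group.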

Other observations

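Among the matrix and adhesion partners, 3 of 49 were higher at E10.5 than in both wild-type E11.5 libraries by at least 2-fold and 5 were lower. That is 16.3% of the list beside 16.2% of all genes (3.65% higher and 12.6% lower), so the list as a whole did not stand out, and the 8 genes are given as single values, named after their values were seen. Parvb, an actin-linked adhesion protein, stood at 9.64 CPM at E10.5 against 2.37 and 1.31 in wild type, and its mutant values of 4.99 and 4.32 lay between. Zyx, a protein of mature focal adhesions, stood at 43.6 CPM against 18.4 and 11.53, and Tgfb1, a growth factor whose latent form integrins with the Itgav chain bind, at 2.59 against 1.05 and 0.777. Lower at E10.5 was Tnc, the matrix protein tenascin, with 5.93 CPM against 60.6 and 46.3. Frem2, a basement membrane protein of the ectoderm, had 38.6 against 128 and 92.7, and the integrin ligand Thbs1 had 51.9 against 117 and 114. Egfl6 (1.39 against 5.42 and 5.92) and Fermt3, the kindlin of blood cells (3.77 against 8.67 and 7.82), were the other two. These differences have no test, since E10.5 had 1 library.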
